A study of Mus musculus with 4 samples.

Results

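The extracellular matrix genes described here are the collagen chains, the laminin chains, the matrix metalloproteinases (MMPs) and the tissue inhibitors of metalloproteinases (TIMPs) of 2 mouse colorectal cancer cell lines, CT26 and MC38. The rule that picks them uses the gene symbol and no measured value, and takes every row of the deposited expression table named as a numbered collagen chain, a laminin alpha, beta or gamma chain, an MMP or one of Timp1 to Timp4. The rule found 82 genes among 51905, of which 44 were collagen chains, 11 laminin chains, 23 MMPs and 4 TIMPs. The study asked how Aurora-A, the mitotic kinase encoded by Aurka, acts from within tumor cells on tumor immunity and nearby immune cells. Cells of each line, both labelled as wild-type in genotype and derived from colon, were infected with a lentivirus carrying the hairpin shmaurka-1 against mouse Aurora-A or the control hairpin shGFP, and by the study's methods were then selected with puromycin. RNA was taken 48 h after seeding from CT26 shGFP, CT26 shmaurka-1, MC38 shGFP and MC38 shmaurka-1 cells, with 1 library for each. A single hairpin stood for the knockdown, so an effect of that hairpin other than loss of Aurora-A cannot be told apart from it.

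Collagens are triple helices of alpha chains. The fibrillar chains build the rope-like fibers of the stroma, type IV chains build the sheet of the basement membrane, type VI chains form beaded filaments, and the fibril-associated (FACIT) chains decorate the fibers. Laminins are cross-shaped trimers of an alpha, a beta and a gamma chain that lie in the basement membrane and are bound by integrins. MMPs are zinc-dependent proteases that cut matrix proteins, some secreted and some anchored in the cell membrane, and TIMPs are secreted proteins that block them. In colorectal tumors much of the fibrillar collagen is made by stromal fibroblasts, whereas the RNA here was taken from cultures of the tumor cell lines.

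In bulk RNA such as this, fewer cells that make a gene and less RNA per cell cannot be told apart. The libraries held 22207768 to 23752269 recovered read fragments, and the deepest was 1.07 times the shallowest, so depth differed little between groups. Aurka was counted at 5724 fragments in the control and 1093 in the knockdown cells of CT26 (log2 fold change -2.26, counting interval -2.36 to -2.17). The matching MC38 cells had 2300 and 413 (-2.44, -2.60 to -2.29). It passed the test over both lines with an adjusted p of 6.92e-92 (edgeR quasi-likelihood test). The labels call CT26 a fibroblast and MC38 an epithelial cell. Of the 14 epithelial markers looked at, only Krt18 and Krt20 were at or above 1 FPKM in CT26, and only Elf3 in MC38. Epcam stood at or below 0.0242 FPKM and Cdh1 at or below 0.0418 FPKM in every library, whereas the mesenchymal filament gene Vim stood at 241 to 383 FPKM. Of the 14 fibroblast or mesenchymal markers looked at, 10 averaged at least 1 FPKM in each line. Thy1, Fap, Acta2 and Lum averaged less than that in both. The data thus went against the epithelial label of MC38, and the lines are called by their names below. Of 5 leukocyte markers, Cd68, a lysosomal gene, stood at 3.30 to 4.97 FPKM in every library, whereas Ptprc was at most 0.0302 FPKM, Adgre1 and Itgam were at most 0.133 FPKM and Cd3e was at 0.

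Promoter sequences of 6 of these genes are shown because the results below turn on them: the 3 main type VI collagen chains, whose knockdown values lay on opposite sides of no change in the lines for Col6a1 and Col6a2, Lamb2 and Col8a1, which passed the test over both lines, and Col4a2, which shares its promoter region with Col4a1. They are RefSeq windows of 300 bases on build GRCm38.p6, from 250 bases before to 50 bases after the annotated start, written 5′ to 3′ on the gene's strand. The windows lie at chr10:76725995-76726294 on the minus strand for Col6a1, chr10:76623581-76623880 on the minus strand for Col6a2 (the more upstream of 2 windows), chr1:90843922-90844221 on the minus strand for Col6a3, chr9:108479612-108479911 on the plus strand for Lamb2, chr16:57754688-57754987 on the minus strand for Col8a1 and chr8:11312555-11312854 on the plus strand for Col4a2. Capitals mark every match, on either strand, to the AP-1 motif TGANTCA, the TATA box TATAAA, the GC box GGGCGG, the CCAAT box CCAAT, the E-box CACCTG and the TEAD motif GGAATG.
Col6a1: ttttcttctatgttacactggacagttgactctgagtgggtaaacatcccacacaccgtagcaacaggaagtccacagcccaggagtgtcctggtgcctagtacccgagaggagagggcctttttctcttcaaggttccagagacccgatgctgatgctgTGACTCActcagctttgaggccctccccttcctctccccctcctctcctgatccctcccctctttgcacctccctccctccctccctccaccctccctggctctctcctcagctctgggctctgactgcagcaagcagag
Col6a2: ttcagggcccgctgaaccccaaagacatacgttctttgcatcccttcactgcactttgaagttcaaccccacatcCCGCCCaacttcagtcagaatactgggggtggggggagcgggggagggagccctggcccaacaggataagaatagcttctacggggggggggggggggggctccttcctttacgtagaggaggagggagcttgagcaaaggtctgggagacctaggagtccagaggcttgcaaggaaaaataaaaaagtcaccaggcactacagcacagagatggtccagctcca
Col6a3: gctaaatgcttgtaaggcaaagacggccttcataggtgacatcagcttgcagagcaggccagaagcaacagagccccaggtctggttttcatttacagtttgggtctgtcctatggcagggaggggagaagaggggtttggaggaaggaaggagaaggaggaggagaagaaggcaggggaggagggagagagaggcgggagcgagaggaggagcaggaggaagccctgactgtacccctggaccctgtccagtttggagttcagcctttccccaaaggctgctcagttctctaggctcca
Lamb2: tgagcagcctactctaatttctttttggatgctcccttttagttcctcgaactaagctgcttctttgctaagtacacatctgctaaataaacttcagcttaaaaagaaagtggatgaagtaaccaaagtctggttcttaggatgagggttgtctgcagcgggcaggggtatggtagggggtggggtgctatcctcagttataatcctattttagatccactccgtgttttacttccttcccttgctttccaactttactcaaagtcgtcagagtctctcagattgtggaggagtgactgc
Col8a1: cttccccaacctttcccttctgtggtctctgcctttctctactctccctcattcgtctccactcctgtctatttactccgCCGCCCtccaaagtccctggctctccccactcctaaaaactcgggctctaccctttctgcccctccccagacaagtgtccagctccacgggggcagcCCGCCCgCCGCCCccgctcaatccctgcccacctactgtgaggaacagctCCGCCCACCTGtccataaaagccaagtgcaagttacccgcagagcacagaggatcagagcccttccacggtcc
Col4a2: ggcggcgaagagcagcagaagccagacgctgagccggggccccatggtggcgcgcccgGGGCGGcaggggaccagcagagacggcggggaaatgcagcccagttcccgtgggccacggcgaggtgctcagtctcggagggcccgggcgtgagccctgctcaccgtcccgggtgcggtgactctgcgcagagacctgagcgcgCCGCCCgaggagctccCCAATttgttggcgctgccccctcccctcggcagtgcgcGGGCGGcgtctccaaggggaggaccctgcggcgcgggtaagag

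The Col6a1 window held 1 AP-1 match, 90 bases before the start, and no other of these motifs. The Col6a2 window held 1 GC box, and the windows of Col6a3 and Lamb2 held none of the 6 motifs. The Col8a1 window held 4 GC boxes, the last overlapping an E-box, and the Col4a2 window held 3 GC boxes and 1 CCAAT box. The Col4a1 window, on the minus strand at chr8:11312777-11313076, overlapped that of Col4a2 by 78 bases, since these genes are transcribed away from each other. Of the 82 genes, 62 had a window and 20 did not, among them Col12a1. Across the 69 windows of these genes the GC box was present in 36 windows or 52.2%, against 35.7% of all 32851 windows. TATAAA was present in 15 or 21.7% against 13.6%, and the AP-1 motif in 9 or 13% against 7.81%. CCAAT was present in 21 or 30.4% against 37.4%, CACCTG in 13 or 18.8% against 20.2%, and GGAATG in 7 or 10.1% against 14.7%. The median GC content was 58.7% in these windows and 52.7% in all windows. A match is a run of letters and was not tested as a binding site.

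Levels are given as FPKM, fragments per kilobase of transcript corrected for library depth, which is scaled per length, so that different genes can be set side by side. With a mean of at least 1 FPKM over its libraries taken as expressed, CT26 expressed 31 of the 82 genes (37.8%, against 22% of all genes) and MC38 expressed 33 (40.2%, against 23.5%). Both lines expressed 25 of them, 6 reached the threshold in CT26 alone, 8 in MC38 alone and 43 in neither. Col19a1, Mmp1a, Mmp20 and Mmp27 had 0 fragments in all 4 libraries, and a further 11 genes never had more than 3. In CT26 the matrix output was concentrated, with 72.4% of the summed 1094 FPKM of these genes in the 5 most abundant, Timp1, Col1a2, Lamb1, Timp2 and Lamc1. In MC38 the sum was 464 FPKM and the leading 5, Mmp11, Timp2, Lamc1, Timp1 and Mmp14, held 44.4% of it.

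**Figure D1:**
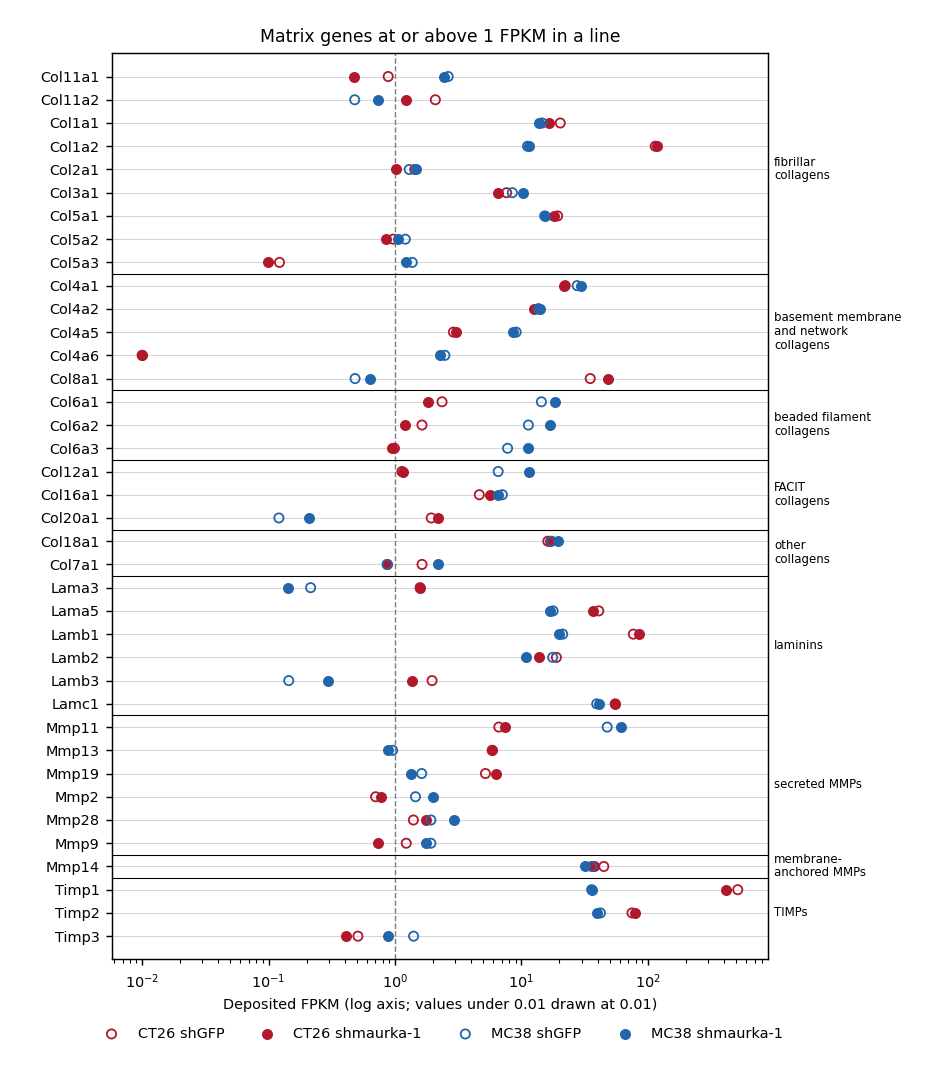
Deposited FPKM (log axis) of 38 matrix genes with a mean of at least 1 FPKM in CT26 or MC38, grouped by role; open circles are shGFP and filled circles shmaurka-1 libraries, 1 library each, and the dashed line marks 1 FPKM. For 32 of the 38 genes the line means lie farther apart than either pair of hairpins, as for Col8a1 at 35.0 and 48.4 FPKM in CT26 and 0.483 and 0.631 FPKM in MC38. The same count was not made over all genes, of which the edgeR line test called 37.5% higher in CT26 and 38.8% higher in MC38.

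The lines were compared with hairpin as a block in edgeR's quasi-likelihood test, in which 54 of the 82 genes averaged 10 counts or more over the libraries. Of these, 18 were higher in CT26, where 37.5% of all 13984 genes tested were called, and 21 were higher in MC38, where 38.8% were called. With the libraries scaled to equal totals instead, which moved the median of all genes from -0.01 to -0.38 on the log2 scale, the split became 14 and 27 (3592 and 7139 over all genes). Of the 34 collagen chains tested, 17 were higher in MC38 and 6 in CT26. Of the 9 laminin chains tested, 6 were higher in CT26 and 0 in MC38. The lines also differ in culture medium (RPMI for CT26, high glucose DMEM for MC38) and in the mouse strain they came from, which cannot be told apart from the line. In this test the shGFP and shmaurka-1 libraries of a line stood in for its replicates. With 1 residual degree of freedom the spread came from the trend over all genes, so the p-values between lines do not measure the spread between cultures.

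Among the fibrillar collagens, Col1a2 (chr6:4504813-4541544), the second chain of type I collagen, stood at 114 and 118 FPKM in CT26 (shGFP and shmaurka-1) and at 11.2 and 11.5 FPKM in MC38, a log2 difference between lines of 3.43 (adjusted p = 2.09e-229, edgeR quasi-likelihood test). Its partner Col1a1 (chr11:94936223-94953042), which supplies most chains of the type I trimer, stood at 20.3 and 16.5 FPKM in CT26 and at 14.6 and 13.8 FPKM in MC38. The level of Col1a2 was therefore 5.64 and 7.15 times that of Col1a1 in CT26, but 0.767 and 0.830 times in MC38. Col5a1, a chain of type V collagen that nucleates fibers, stood at 15.3 to 19.3 FPKM in all 4 libraries. Col3a1 was lower, at 6.59 to 10.4 FPKM, and Col2a1, the cartilage chain, was at 1.02 to 1.46 FPKM. Col5a3 separated the lines the other way from Col1a2, with 0.122 and 0.0982 FPKM in CT26 and 1.37 and 1.21 FPKM in MC38.

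The basement membrane and network collagens held the largest contrasts between the lines. Col8a1 (chr16:57624257-57754737), a short network collagen, stood at 35.0 and 48.4 FPKM in CT26 and at 0.483 and 0.631 FPKM in MC38, a log2 difference of 6.26. Col4a6 was at 0 and 0.00640 FPKM in CT26, from 0 and 1 fragment, and at 2.48 and 2.27 FPKM in MC38, from 519 and 463 fragments. On fragments scaled by TMM, edgeR's library normalization, this is a ratio of 772 with a counting interval of 138 to 30512. Col4a4 had 0 fragments in both CT26 libraries and 77 and 59 in MC38, at least 35.6-fold higher in MC38 on the same scale, against a floor of 3 fragments over the line. The ubiquitous pair of the basement membrane, Col4a1 and Col4a2, differed far less. Col4a1 stood at 22.2 and 21.9 FPKM in CT26 and at 27.6 and 29.8 FPKM in MC38, and Col4a2 at 13.7 and 12.6 FPKM and at 13.6 and 14.1 FPKM. Their ratio was 1.62 and 1.73 in CT26 and 2.03 and 2.12 in MC38. Col4a5, the partner of Col4a6, stood at 2.90 and 3.03 FPKM in CT26 and at 9.09 and 8.52 FPKM in MC38. Col18a1, whose C-terminal fragment is endostatin, was at 16.2 to 19.6 FPKM in every library.

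The main type VI chains and Col12a1 were among the 17 collagens called higher in MC38, whereas the FACIT chain Col20a1, at 1.93 and 2.18 FPKM against 0.121 and 0.207 FPKM, was higher in CT26 (log2 difference 3.60, adjusted p = 7.87e-42, edgeR). Col6a1 stood at 2.36 and 1.82 FPKM in CT26 and at 14.4 and 18.5 FPKM in MC38 (log2 difference -2.95, adjusted p = 4.04e-113, edgeR). Col6a2, its neighbour on chromosome 10, stood at 1.64 and 1.19 FPKM against 11.4 and 16.8 FPKM (-3.28, adjusted p = 1.42e-128). Col6a3, the longest chain of the trimer, stood at 0.990 and 0.956 FPKM against 7.77 and 11.3 FPKM. The 3 chains that assemble with one another were thus all low in CT26 and all several-fold higher in MC38. Col12a1 (chr9:79598990-79718831), a FACIT chain that binds type I fibers, stood at 1.13 and 1.15 FPKM in CT26 and at 6.55 and 11.5 FPKM in MC38 (-3.89, adjusted p = 1.25e-164). The 4 membrane-spanning chains, Col13a1, Col17a1, Col23a1 and Col25a1, were not above 6 fragments in any library.

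Laminin chains were among the most abundant of these genes in both lines. Lamb1 (chr12:31265233-31329644) stood at 76.8 and 85.9 FPKM in CT26 and at 21.2 and 19.8 FPKM in MC38 (log2 difference 2.05, adjusted p = 1.54e-93, edgeR). Lamc1, the gamma chain of most laminins, stood at 55.2 and 54.6 FPKM against 39.4 and 41.3 FPKM, and Lama5 at 40.9 and 36.5 FPKM against 17.8 and 16.7 FPKM. These 3 chains can form 1 trimer, and both lines expressed all of them. Lama3 and Lamb3, chains of laminins found under epithelia, were on the CT26 side. Lama3 stood at 1.58 and 1.59 FPKM against 0.215 and 0.141 FPKM, and Lamb3 at 1.96 and 1.37 FPKM against 0.144 and 0.297 FPKM. Lama1 had no fragment in CT26 and 11 and 14 in MC38.

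Of the 23 MMPs, 5 reached a mean of 1 FPKM in CT26 and 6 in MC38, where 22% and 23.5% of all genes did. Mmp14 (chr14:54431611-54441265), the membrane-anchored collagenase that also activates pro-MMP2, stood at 44.8 and 37.5 FPKM in CT26 and at 36.0 and 32.0 FPKM in MC38, and was the only one of 7 membrane-anchored MMPs to reach 1 FPKM. Its substrate Mmp2 was at 0.703 and 0.780 FPKM in CT26 and at 1.45 and 2.0 FPKM in MC38. Mmp11 (chr10:75923221-75940672), stromelysin-3, was the most abundant of all 82 genes in MC38, at 47.7 and 61.4 FPKM, and stood at 6.63 and 7.35 FPKM in CT26 (log2 difference -2.82, adjusted p = 8.42e-117, edgeR). Mmp13 (5.87 and 5.81 FPKM) and Mmp19 (5.19 and 6.35 FPKM) were higher in CT26 than in MC38 (0.959 and 0.888 FPKM, 1.63 and 1.33 FPKM). A group of 10 secreted MMPs lies side by side on chr9:7272513-7699585, a stretch of 427 kb on GRCm38. Of these 10, Mmp13 alone reached 1 FPKM, and only in CT26, while the highest of the other 9 was at 0.669 FPKM in CT26 (Mmp10) and at 0.205 FPKM in MC38. Mmp10 had 22 fragments in each CT26 library and 0 in MC38, at least 18.7-fold higher in CT26 after TMM scaling, against the floor of 3 fragments.

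By RNA level, the TIMPs summed above the MMPs in CT26, and Timp1 made up most of that sum. Protein and activity are not part of these data. Timp1, which blocks most secreted MMPs, stood at 514 and 412 FPKM in CT26 and at 35.9 and 36.1 FPKM in MC38 (log2 difference 3.73, adjusted p = 5.10e-230, edgeR). Timp2, which pairs with Mmp14 in the activation of pro-MMP2, stood at 74.9 and 78.5 FPKM against 42.2 and 39.7 FPKM. Timp3, the matrix-bound inhibitor, was at 0.509 and 0.407 FPKM against 1.40 and 0.881 FPKM, and Timp4 had at most 3 fragments in any library. The summed TIMP level was 8.77 and 7.96 times the summed MMP level in CT26, and 0.861 and 0.746 times in MC38. Mmp14 stood at 0.598 and 0.478 times Timp2 in CT26, and at 0.854 and 0.806 times in MC38.

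**Figure D2:**
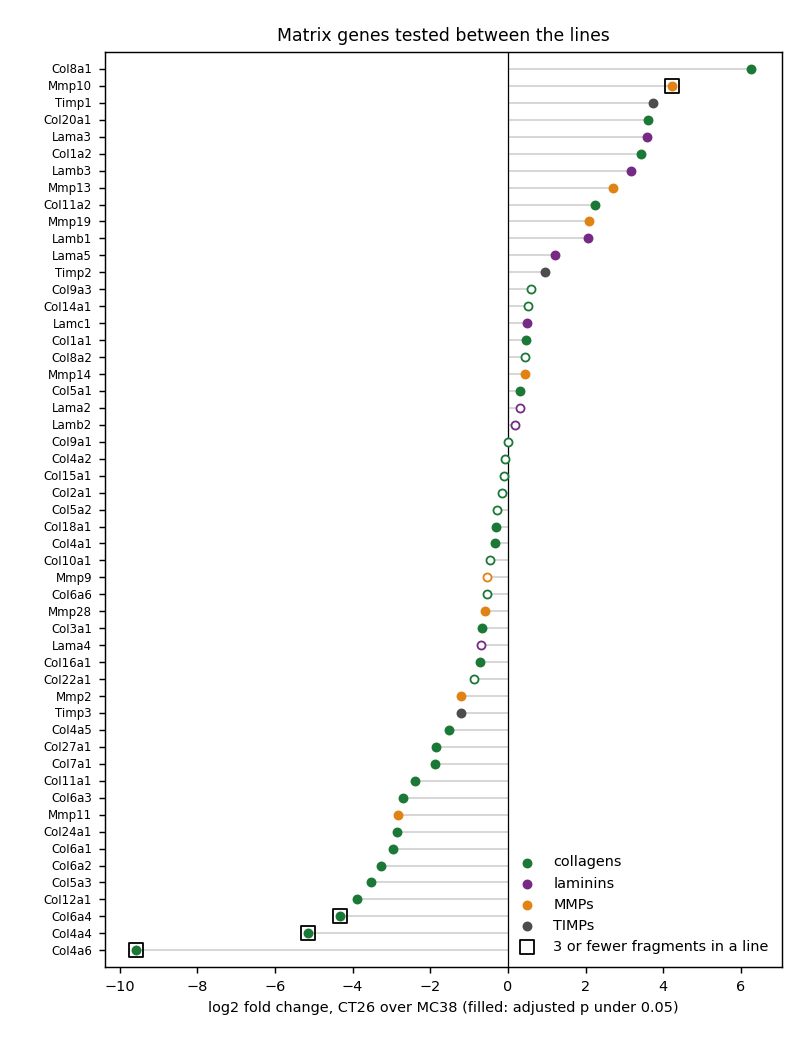
Log2 fold change of CT26 over MC38 for 53 of the matrix genes tested with edgeR, sorted, with filled points at an adjusted p under 0.05 and open points above it; squares mark 4 genes with 3 or fewer fragments in a line, drawn at the ratio of TMM-scaled fragments or, against 0, at its lower bound. Col8a1 and Timp1 lie far to the CT26 side at 6.26 and 3.73, and the Col6a1, Col6a2 and Col12a1 points lie to the MC38 side at -2.95, -3.28 and -3.89.

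The knockdown was then compared with shGFP within each line. With 1 library per group there is no test here, and a fold change of TMM-scaled counts with 1 count added is given with its exact 95% counting interval, which covers counting error only and not the spread between cultures. Only genes averaging 10 counts or more in the line are described, 49 of the 82 in CT26 and 57 in MC38. Of the 82, 47 were past that minimum in both lines and 23 in neither. In CT26, 0 of the 49 were above shGFP by over 1.5-fold (3.78% of all 12753 genes were) and 7 were below it by that much (5.19% of all genes). The median log2 fold change of the 49 was -0.22, against -0.0036 over all genes, with 33 values below 0 and 16 above. Under the alternatives this median lay between -0.25, with total-count scaling, and -0.03. It lay nearer 0 at -0.16 with a minimum of 50 counts, -0.12 with no count filter, and -0.11 and -0.03 with FPKM and a pseudocount of 0.1 and 1. Their counting intervals lay wholly below no change in 20 genes and wholly above it in 4, against 20.2% and 21.8% of all genes. In MC38, 4 of the 57 were above (3.80% of all 13836 genes) and 4 were below by over 1.5-fold (3.11%), and the median was 0.03 against 0.0014 over all genes. Here 12 intervals lay above no change and 6 below, against 21.9% and 20.4% of all genes. Of the 47 genes past the minimum in both none was past 1.5-fold in both, either above or below (0.394% of all 11928 genes each). Their signs were the same in the lines for 19 of 47 (40.4%), against 56.8% of all genes, and the most filled combination was below shGFP in CT26 and above it in MC38, with 22 genes. The share of all genes in that combination was not counted, and a sign takes no account of the counting interval.

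**Figure D3:**
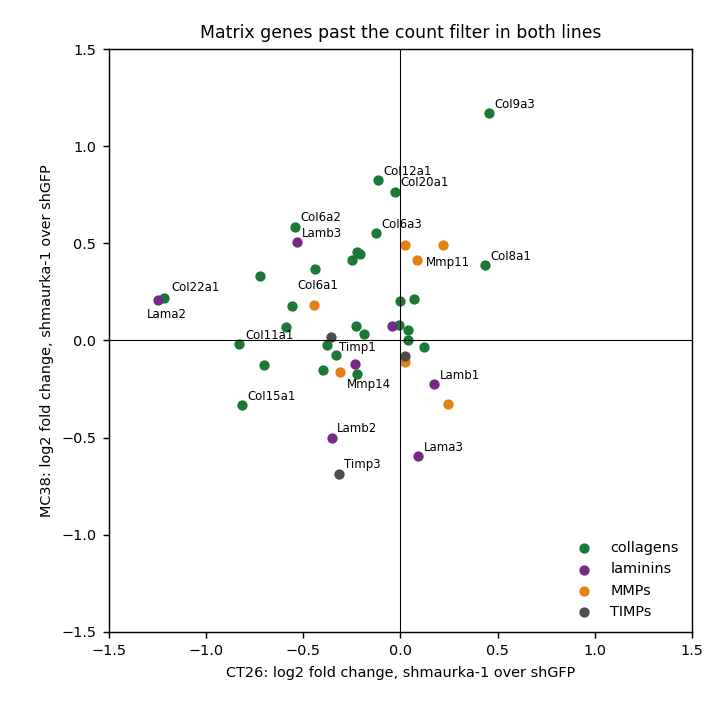
Log2 fold change of shmaurka-1 over shGFP in CT26 (x axis) and MC38 (y axis) for 46 matrix genes averaging 10 counts or more in both lines, colored by family; each point rests on 1 library per condition. The upper left quadrant, below shGFP in CT26 and above it in MC38, holds 21 points, Col6a1 and Col6a2 among them, and Lamb2 and Timp3 lie in the lower left quadrant.

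Of the fibrillar chains in CT26, 9 of 10 were below shGFP, where 50.6% of all genes were, and their median was -0.39 on the log2 scale. Col11a1, a minor fibrillar chain, had 113 and 58 fragments, a log2 fold change of -0.83 (interval -1.32 to -0.37). Col11a2 had 356 and 217 fragments, a log2 fold change of -0.59 (-0.84 to -0.34). Both were low in level, at 0.470 to 2.09 FPKM. Col2a1 was at -0.56 (-0.88 to -0.25) and Col3a1 at -0.38 (-0.54 to -0.22). Among the abundant chains, Col1a1 was at -0.33 (-0.41 to -0.25), Col5a1 at -0.19 (-0.24 to -0.13) and Col1a2 at 0.04 (0.00 to 0.08). The low chain Col5a2 was at -0.22 (-0.56 to 0.11), nearer no change than Col1a1. In MC38 the median of the 11 fibrillar chains was -0.02, and none of their intervals left out no change, where 21.9% of all genes had an interval above it and 20.4% below. Col1a1 was at -0.08 (-0.16 to 0.01), Col5a1 at 0.03 (-0.03 to 0.09) and Col11a1 at -0.02 (-0.19 to 0.15).

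Among the type VI chains, Col6a1 and Col6a2 lay on opposite sides in the lines by more than counting error, as did 5 of the 47 genes past the count minimum in both lines and 7.45% of all genes. In CT26, Col6a1 had 324 and 219 fragments (log2 fold change -0.44, interval -0.69 to -0.19) and Col6a2 had 256 and 161 (-0.54, -0.84 to -0.25), whereas Col6a3 had 151 and 127 (-0.12, -0.48 to 0.22). In MC38, Col6a1 had 2374 and 2997 fragments (0.37, 0.29 to 0.45), Col6a2 had 2117 and 3103 (0.59, 0.51 to 0.67) and Col6a3 had 976 and 1400 (0.55, 0.44 to 0.67). In MC38 these 3 chains were thus above shGFP by more than counting error. The far less abundant Col6a4, with 29 and 22 fragments in MC38 (-0.35, -1.23 to 0.48), and Col6a6, with 18 and 14 (-0.31, -1.45 to 0.76), had values below 0 and intervals that included no change. Whether the 2 lines respond differently was not tested, as there was 1 library per condition.

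The FACIT chains were above shGFP in all 7 of the 7 genes described in MC38, with a median of 0.44, and below it in 6 of 7 in CT26, with a median of -0.03, where 50.3% of all genes lay above shGFP in MC38 and 50.6% below it in CT26. Only 2 of the 7 intervals in MC38 lay above no change and 1 of the 7 in CT26 below it. Col12a1 had the most fragments of them in MC38, with 1984 and 3436 fragments in MC38 (log2 fold change 0.83, interval 0.75 to 0.91) and 149 and 126 in CT26 (-0.12, -0.47 to 0.23). Col9a3, a chain of the cartilage FACIT collagen, had 13 and 30 fragments in MC38 (1.17, 0.26 to 2.30) and 22 and 28 in CT26 (0.46, -0.39 to 1.35). Col22a1 had 24 and 9 fragments in CT26 (-1.22, -2.58 to -0.13). Col9a3 and Col22a1 rest on few fragments, and their intervals are wide. Col20a1 was past 1.5-fold in MC38 with 20 and 34 fragments (0.77), but its interval of -0.04 to 1.67 included no change.

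Among the remaining collagens, Col15a1, a basement membrane zone collagen, had 41 and 21 fragments in CT26 (-0.82, interval -1.67 to -0.05). Col7a1, which forms anchoring fibrils, had 75 and 42 (-0.70, -1.29 to -0.15). In MC38, Col18a1 had 3349 and 3791 fragments (0.21, 0.15 to 0.28). Col4a1 stood at 0.04 (-0.02 to 0.10) in CT26 and 0.06 (0.01 to 0.10) in MC38. Col4a2, from the shared promoter region, stood at -0.23 (-0.30 to -0.16) in CT26 and 0.07 (0.01 to 0.14) in MC38. The intervals of this pair did not overlap in CT26 and overlapped in MC38. Col4a6, described in MC38 only, stood at -0.13 (-0.31 to 0.05). Col4a3 was past 1.5-fold in MC38 on 26 and 16 fragments (-0.63, -1.66 to 0.29), and Col27a1 in CT26 on 15 and 8 (-0.72, -2.23 to 0.55), with intervals that include no change.

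Of the laminin chains past the count minimum, 1 of 8 in CT26 and 1 of 10 in MC38 were below shGFP by over 1.5-fold, and none above, against 5.19% and 3.11% of all genes below. Lamb2 (chr9:108479735-108490530), which replaces Lamb1 in laminins of mature basement membranes, was below shGFP in both lines, with 2095 and 1503 fragments in CT26 (-0.35, interval -0.45 to -0.26) and 2414 and 1667 in MC38 (-0.50, -0.59 to -0.41). Lamb1 lay on opposite sides, at 0.17 (0.13 to 0.22) in CT26 and -0.22 (-0.30 to -0.15) in MC38. The level of Lamb1 over that of Lamb2 was 4.06 with shGFP and 6.24 with shmaurka-1 in CT26, and 1.2 and 1.81 in MC38. These ratios are of FPKM, by which the MC38 log2 fold changes were -0.10 for Lamb1 and -0.69 for Lamb2, farther apart than by counts. Lama5 was at -0.23 (-0.27 to -0.20) and -0.12 (-0.17 to -0.07), and Lamc1 at -0.04 (-0.08 to -0.00) and 0.07 (0.03 to 0.11). Lamb3 had 231 and 146 fragments in CT26 (-0.53, -0.85 to -0.23), whereas Lama3 had 363 and 355 (0.09, -0.12 to 0.31). In CT26 Lamb3 was thus below shGFP by more than counting error, and the interval of Lama3 included no change. In MC38 Lama3 was past 1.5-fold on 47 and 30 fragments (-0.60), with an interval of -1.33 to 0.08. Lama2, the alpha chain of muscle laminin, had 22 and 8 fragments in CT26 (-1.25, -2.71 to -0.11) and 14 and 16 in MC38.

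Of the MMPs past the count minimum none with an interval clear of no change was past 1.5-fold in either line. Mmp14 had 2911 and 2150 fragments in CT26 (log2 fold change -0.31, interval -0.39 to -0.23) and 2551 and 2229 in MC38 (-0.16, -0.24 to -0.08), below shGFP in both. Mmp11 had 2884 and 3753 fragments in MC38 (0.41, 0.34 to 0.48) and 367 and 357 in CT26 (0.08, -0.13 to 0.30). In MC38 the less abundant Mmp2, with 108 and 149 fragments (0.49, 0.13 to 0.87), and Mmp28, with 202 and 278 (0.49, 0.23 to 0.76), also lay above shGFP by more than counting error. In CT26 Mmp19 had 288 and 313 fragments (0.24, 0.01 to 0.48), and Mmp13 had 261 and 243 (0.02, -0.24 to 0.28). Mmp15 was past 1.5-fold below shGFP in MC38 on 17 and 9 fragments (-0.81), with an interval of -2.23 to 0.36. Timp1 had 7421 and 5322 fragments in CT26 (-0.36, -0.41 to -0.30) and 614 and 608 in MC38 (0.02, -0.14 to 0.18). Timp2 was close to no change, at 0.02 (-0.03 to 0.08) and -0.08 (-0.15 to -0.02). Timp3 had 149 and 90 fragments in MC38 (-0.69, -1.09 to -0.31), the one inhibitor past 1.5-fold, and 45 and 33 in CT26 (-0.32, -1.02 to 0.36). Timp4 had 1 and 1 fragments in CT26 and 3 and 0 in MC38, so no fold is given.

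**Figure D4:**
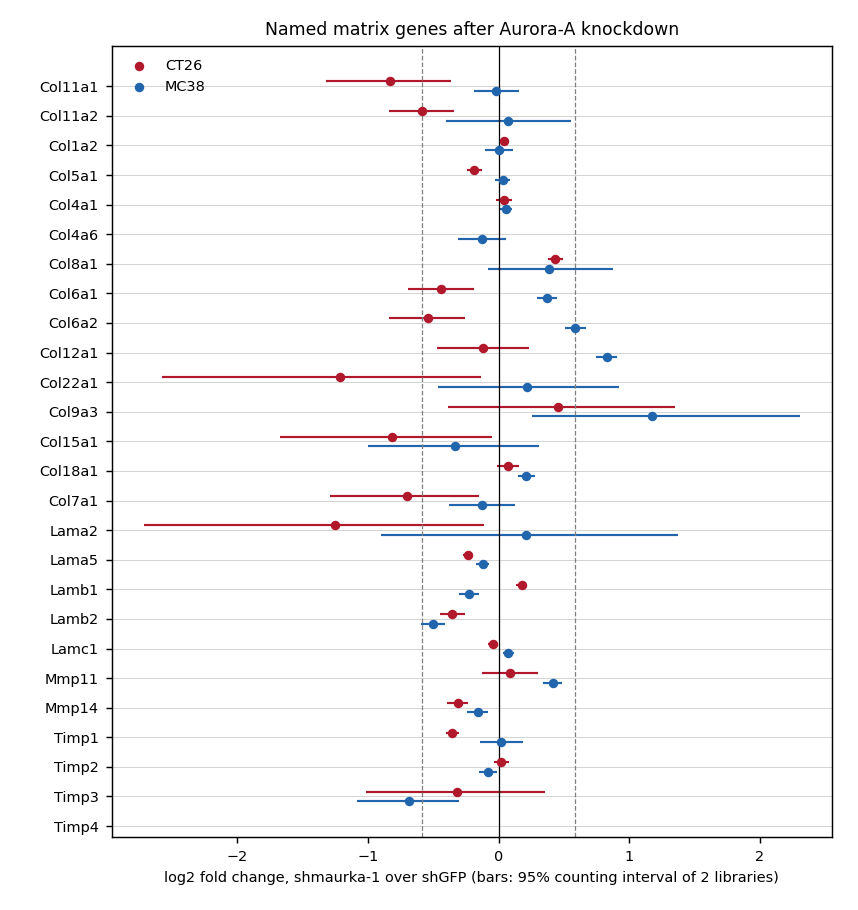
Log2 fold change of shmaurka-1 over shGFP in CT26 and MC38 for 26 named matrix genes, with bars for the exact 95% counting interval of 2 libraries and dashed lines at 1.5-fold; values are drawn only where the line averaged 10 counts or more, so Timp4 has none and Col4a6 has MC38 only. Lamb2 lies left of 0 in both lines at -0.35 and -0.50, and Col6a1 and Col6a2 lie left of 0 in CT26 and right of 0 in MC38.

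Counts and FPKM can part where the authors' software assigns fragments to other transcript lengths. In CT26 0 of the 49 genes had a knockdown fold by FPKM that differed from that by counts by over 1.5-fold, against 1.87% of all genes. In MC38 4 of 57 did, against 1.42% of all genes. Col7a1 stood at -0.13 by counts and at 1.35 by FPKM (0.866 and 2.2 FPKM from 284 and 254 fragments), and Lama4 at 0.03 and 1.18. For Col4a4 the values were -0.35 and -1.11, and for Col24a1 -0.59 and 0.04. For these genes in MC38 the FPKM does not follow the fragments, and Col7a1 is the one of them drawn in the plot of levels.

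The effect of the knockdown common to both lines was tested over the 4 libraries with line as a block in edgeR's quasi-likelihood test, with Benjamini-Hochberg adjustment over 11928 genes. The knockdown is replicated across the lines alone, and with 1 residual degree of freedom the spread comes from the trend over all genes. Of the 47 matrix genes tested 2 were called higher (1.79% of all genes were) and 1 lower (1.10%). Col8a1 (ENSMUSG00000068196) rose, with 4043 and 5011 fragments in CT26 (log2 fold change 0.43, interval 0.37 to 0.49) and 67 and 86 in MC38 (0.39, -0.08 to 0.88), a common log2 fold change of 0.42 and an adjusted p of 0.0339. Lamb2 (ENSMUSG00000052911) fell, with a common log2 fold change of -0.43 and an adjusted p of 0.00547. Col12a1 (ENSMUSG00000032332) was called higher, at 0.49 with an adjusted p of 0.0106, but its values of -0.12 in CT26 and 0.83 in MC38 differ in sign, and its interval in CT26 includes no change. All 3 calls were absent with DESeq2, where the adjusted p was 0.445 for Col8a1, 0.240 for Lamb2 and 0.853 for Col12a1. They were absent with limma on FPKM too.

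Related genes were looked at from a list of collagen-processing enzymes, other matrix proteins, matrix receptors and protease regulators, of which 73 of 75 were in the files. Over both lines 61 were tested, 0 were called higher and 2 lower, against 1.79% and 1.10% of all genes. With no adjustment the test gave p under 0.05 for 12 of the 61, against 12.4% of all genes. Fbln2, fibulin-2, a glycoprotein that binds laminins and fibronectin, fell, with 45.0 and 27.6 FPKM in CT26 and 1.49 and 0.703 FPKM in MC38 (log2 fold changes by counts -0.70 and -0.76, adjusted p = 1.54e-05, edgeR). Itga3, the integrin alpha chain that binds laminins, fell, with 16.3 and 10.2 FPKM in CT26 and 4.74 and 3.83 FPKM in MC38 (-0.59 and -0.31, adjusted p = 0.0166, edgeR). Over all genes, edgeR called 213 higher and 131 lower, against 22 and 15 with DESeq2 and 3 and 3 with limma on FPKM. The values of Fbln2 and Itga3 under DESeq2 and limma are not given here. The other matrix proteins in CT26 had a median log2 fold change of -0.47, with 0 values above and 17 below 0, and 7 of the 17 were below shGFP by over 1.5-fold, where 50.6% of all genes were below 0 and 5.19% were below by over 1.5-fold. In MC38 the same group had a median of -0.0033, with 8 above and 9 below. The collagen-processing enzymes had medians of -0.11 in CT26 and -0.05 in MC38. Summed over the list of 14 mesenchymal markers, the level was 1508 FPKM in CT26 shGFP and 1516 FPKM in CT26 shmaurka-1, and 407 and 377 FPKM in MC38. The 14 epithelial markers summed to 43.4 and 43.2 FPKM in CT26 and to 5.57 and 4.46 FPKM in MC38. Within these sums single markers differed. S100a4 and Vim held most of the mesenchymal sum, and in CT26 9 of the 13 mesenchymal markers past the count minimum lay below shGFP, 3 of them by over 1.5-fold. Acta2 had 40 and 18 fragments there (-0.99, -1.92 to -0.19), Dcn had 196 and 113 (-0.67, -1.02 to -0.33) and Snai2 had 2839 and 3331 (0.35, 0.28 to 0.43). Krt20 had 434 and 205 fragments in CT26 (-0.95, interval -1.20 to -0.71), while Krt18 held most of the sum. In MC38, Cdh2 had 486 and 314 fragments (-0.59, -0.81 to -0.39), Pdgfra had 770 and 499 (-0.59, -0.76 to -0.43) and S100a4 had 294 and 474 (0.72, 0.51 to 0.94). The 4 endothelial markers summed to 0.540 and 0.658 FPKM in CT26 and to 1.76 and 0.861 FPKM in MC38, where Cdh5 had 173 and 81 fragments (-1.05, -1.46 to -0.67) and Pecam1 had 42 and 18 (-1.14, -2.07 to -0.36). The 5 leukocyte markers summed to 4.32 and 3.41 FPKM in CT26 and to 5.10 and 4.23 FPKM in MC38. The part of such markers in the matrix values was not tested.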

How the data were processed

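Total RNA from 4 cultures was made into strand-specific libraries. Per the submitters' processing notes, the authors used Trimmomatic (v 0.36), HISAT2, Cufflinks (v 2.2.1) and Cuffdiff, and the deposited tables give FPKM and estimated counts per gene. The notes name build GRCm39, but 99.8% of 20020 gene loci overlapped the gene of the same name on GRCm38.p6, so coordinates are given as GRCm38. Whether counting used strand is not given in the sources used here, and 47 of the 82 genes share a deposited locus with another gene. The deposited estimated counts are fragments times a factor for each library (97.1% to 97.7% of values above 0 were whole multiples within 0.05), from which fragments were recovered. Counts were rounded and analysed with edgeR (v 4.0.16, TMM), DESeq2 (v 1.42.0) and limma (v 3.58.1) in R (v 4.3.3), and with Python (v 3.11.15). Calls used an adjusted p under 0.05. Named genes were Aurka, the 10 most abundant members in each line, members past 1.5-fold with an interval excluding no change, members called over both lines, the TIMPs, the 10 members with the smallest p between lines, and related genes called over both lines. Many other members are named as examples, chosen after their values were seen. The members and lists were chosen with earlier results of these data known. The libraries are single cultures. In the edgeR tests the spread came from the trend over all genes, so their p-values do not measure the spread between repeated cultures. The values of 1 member are not reported here and are left out of the plots.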

Additional observations from a re-analysis of the deposited data

Results flagged for a closer look

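5 matrix genes had knockdown values on opposite sides of no change in the lines, with both counting intervals clear of it, of 47 past the count minimum in both lines (7.45% of all genes did so). The log2 fold change in MC38 minus that in CT26 was 0.81 for Col6a1, 1.13 for Col6a2, 0.30 for Col4a2, 0.11 for Lamc1 and -0.40 for Lamb1. Each rests on 1 library per condition, and the difference was not tested. Both intervals of Col6a1, Col6a2 and Lamb1 also left out no change with DESeq2 size factors, total-count scaling and recovered fragments. That of Lamc1 in CT26 included no change with DESeq2 size factors, and that of Col4a2 in MC38 with DESeq2 size factors and with total-count scaling.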

How the results depend on the processing

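Counts of members past a threshold depended on the processing. With 1 library per group no library could be left out. In CT26 the 0 members above shGFP became 1 with FPKM and a pseudocount of 0.1 (as did the 0 above in both lines) and 3 with no count filter. The 7 below became 1 with FPKM and a pseudocount of 1, 3 at a minimum of 50 counts, 17 with no filter, 4 at a fold of 0.6 and 2 at 2-fold. In MC38 the 4 above became 2 with that FPKM scale, 2 with at least 50 counts and 1 at 2-fold. The 4 below became 1 with that FPKM scale, 2 with 5 counts added, 1 with at least 50 counts, 14 with no filter, 1 at a fold of 0.6, 0 at 2-fold and 1 when the interval was required to leave out no change. The 0 below in both lines became 4 with no filter, which adds genes of a few fragments. Over both lines the 2 higher and 1 lower became 0 and 0 with DESeq2 (2 members at an unadjusted p under 0.05), 0 and 0 with limma on FPKM (4) and 0 and 0 without the line block (0). The higher count was 1 with total-count scaling, with recovered fragments and with no filter, where Col8a1 was lost (adjusted p = 0.063, 0.054 and 0.075, edgeR). The cause was not tested. Total-count scaling changed the calls over all genes from 213 higher and 131 lower to 157 and 163. Expressed members went from 31 in CT26 and 33 in MC38 to 20 and 21 at 5 FPKM, and to 49 and 57 at 10 counts. Of 357 alternative values for single genes, 20 lay outside the counting interval, all with FPKM, and 0 changed sign where the interval left out no change. Signs did change where the interval included it. With FPKM and a pseudocount of 0.1, Col4a1 in CT26 went from 0.04 to -0.02 and Col12a1 in CT26 from -0.12 to 0.02. The depth limits the low genes, since 11 members had no more than 3 fragments in any library and 4 had none.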
